A study of Mus musculus with 36 samples.

Results

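Hearts of the midfetal period (E14.5, E15.5 and E16.5) were set against both ends of a mouse heart time series, the E10.5 embryo and the young adult, to find genes whose level peaked or dipped in between. The comparison used 9 midfetal arrays, 3 E10.5 arrays and 3 young adult arrays, 15 of the 36 arrays of the series. A probe set was kept when the mean of the midfetal stages lay more than 4-fold above, or more than 4-fold below, both E10.5 and young adult. It also had to pass an adjusted p of 1e-05 in both differences (limma) and reach a stage mean above 5 (log2 intensity) in at least 1 stage. Of 20701 genes measured by 45101 probe sets, 20 genes (0.0966%) were higher than both ends and 11 genes (0.0531%) were lower than both ends. A further 3 probe sets without a gene ID were higher and 1 was lower. The differences from E10.5 and from young adults chose these genes, so they are given as descriptions. The same pattern is tested in other arrays, and inside the window by differences between its own arrays. Where other fits or other probe sets are read in the arrays that chose the genes, their p-values and counts are descriptions too.

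All hearts came from OF1 mice, an outbred strain, with no transgene, deletion or treatment in any group. The series holds 12 stages with 3 arrays each: daily embryonic stages starting at E10.5 and ending at E19.5, young adults of 10 weeks, and old adults whose age the labels give as 14 months. Each midfetal and adult stage has a male, a female and a mixed array, while E10.5 hearts were not separated by sex. The female and male arrays of a fetal stage each rest on the heart of 1 pup, and how many hearts entered a mixed array is not given in the sources used here. RNA came from whole hearts, so a lower level can reflect fewer cells of a type or less RNA per cell, and these cannot be told apart.

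Between E10.5 and birth the looped heart tube becomes a chambered organ. The ventricular septum closes, the cushions are remodelled into valves, the compact wall thickens, and coronary vessels and fibroblasts spread through the myocardium. Fibroblasts, valve cells and smooth muscle lay down collagen and elastic fibres in this period, which lysyl oxidases cross-link. Heart muscle cells at the same time build up the channels and sarcoplasmic reticulum proteins that couple excitation to contraction, and they leave the cell cycle only around birth.

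The arrays read as heart tissue: Myh7, the fetal ventricular myosin heavy chain, had among the highest stage means of the window (13.62 ± 0.05 at E14.5, 13.74 ± 0.09 at E15.5 and 13.74 ± 0.11 at E16.5, log2 intensity, SD, n = 3), beside Myl2, Tmsb10 and Uqcrb (13.46 to 13.68). Actc1 and Tnnt2 were at 12.64 and 12.78. Of 18 liver markers, looked at because the extraction protocol of the labels names liver, 5 exceeded a stage mean of 5, and Alb and Apoa1 stood at 3.72 ± 0.29 and 3.83 ± 0.23 in midfetal hearts. Of the 18, 3 were more than 4-fold lower in midfetal hearts than in young adults (16.7%, beside 1.82% of all genes, 1 probe set a gene), and the cause was not tested. The midfetal arrays correlated with each other at r = 0.973 to 0.993 over probe sets, with E10.5 at 0.917 to 0.980 and with young adults at 0.888 to 0.911.

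One technical measure followed the same course as the genes sought. Control probe sets at the 3′ and 5′ ends of Gapdh and Actb give, as their mean log2 difference, a sign of RNA integrity and labelling length: the larger it is, the less of a transcript's 5′ part was labelled. The difference was 2.83 ± 0.81 at E10.5 (SD, n = 3), 4.42 ± 0.23 in midfetal hearts (n = 9) and 2.33 ± 0.17 in young adults (n = 3). It was high also at E13.5 (4.41 ± 0.03), and intermediate at E11.5 (3.93 ± 0.37), E17.5 (3.92 ± 0.71) and E19.5 (4.0 ± 0.04). Within E10.5 the third array stood apart, at 3.76 against 2.28 and 2.44. The counts of peaks and dips and the tests outside the choice were therefore also computed with this difference as a covariate, and with the level of the hybridization controls, spiked after labelling, which did not follow the midfetal course (9.90 ± 0.39 at E10.5, 11.01 ± 0.31 midfetal, 12.17 ± 0.22 in young adults). The 5′ and middle Actb control probe sets themselves lay below both ends at a 2-fold limit (-1.77 and -1.38 for the 5′ probe set), while the 3′ Actb probe set differed by -0.46 and -0.03 (log2).

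Far more genes passed against 1 end than against both. Midfetal hearts were more than 4-fold higher than E10.5 in 123 genes (0.594%) and lower in 267 (1.29%), and more than 4-fold higher than young adults in 771 (3.72%) and lower in 494 (2.39%). Both differences share the 9 midfetal arrays. In the leading probe set of each kept gene, and in the kept probe sets without a gene ID, the 9 midfetal arrays did not overlap the 6 arrays of the ends. This follows largely from the limits: at 2-fold, 249 of 250 peak and 178 of 183 dip probe sets did not overlap either. The share over all probe sets was not computed. The plot of both differences sets the kept probe sets against all others.

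**Figure D1:**
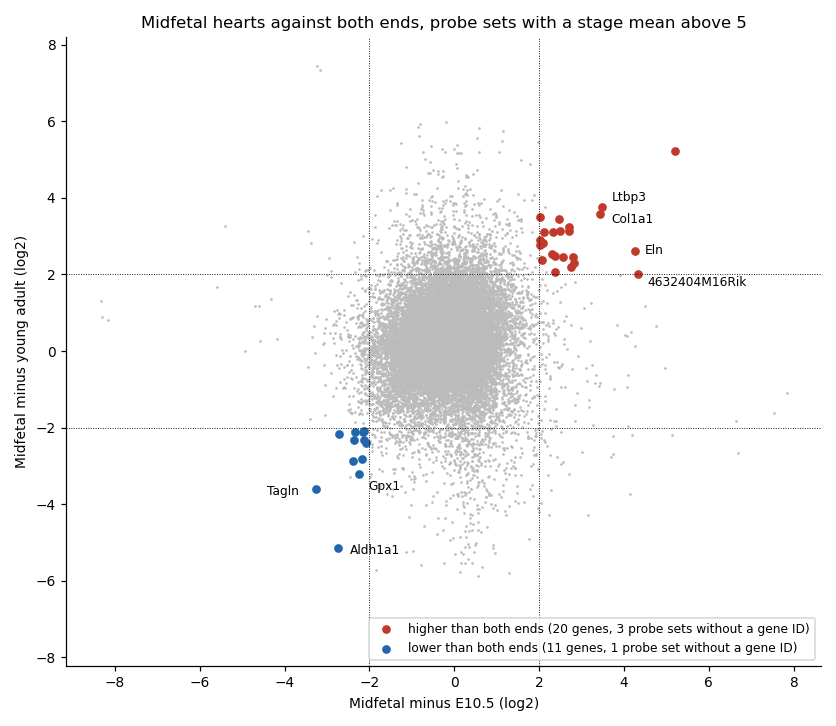
Each point is 1 of 20685 probe sets with a stage mean above 5, placed by the midfetal mean minus E10.5 (x axis, log2) and minus young adult (y axis, log2); dotted lines mark 4-fold. The 20 genes (and 3 probe sets without a gene ID) above both ends are red in the upper right, and the 11 genes (and 1 such probe set) below both ends are blue in the lower left.

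Extracellular matrix genes led the peaks. Ltbp3, a latent TGF-beta binding protein of the matrix, in its leading probe set read 2.27, 2.48 and 2.71 in the E10.5 arrays, 5.28 to 6.48 (median 6.04) in the midfetal arrays and 2.02, 2.41 and 2.21 in the young adult arrays (log2 intensity, adults in the order male, mixed, female). By this probe set the midfetal mean was 11.2-fold above E10.5 (log2 3.49, SE 0.26) and 13.6-fold above young adults (log2 3.76). The levels of both ends were near the floor of the array for this probe set. A second Ltbp3 probe set did not share the later drop: it stood at 5.46, 7.67 and 7.42 (means of E10.5, midfetal and young adult), 2.21 and 0.25 apart. Col1a1, a chain of type I collagen, read 6.51, 6.66 and 7.39 at E10.5, 9.79 to 10.49 (median 10.34) in midfetal hearts and 6.36, 6.63 and 7.1 in young adults, 10.8-fold and 12-fold apart (log2 3.43 and 3.59, SE 0.17). The lowest midfetal array, E14.5 mixed at 9.79, was still far above the highest array of the ends at 7.39.

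Eln, the elastin of great arteries and valves, had the steepest difference from E10.5 of these matrix genes, with 4.62, 4.69 and 4.58 at E10.5, 8.16 to 9.33 (median 8.87) in midfetal hearts and 6.25, 6.21 and 6.38 in young adults (log2 differences 4.26 and 2.62, SE 0.25). Lox, the lysyl oxidase that cross-links collagen and elastin, read 4.11, 4.68 and 4.97, then 6.9 to 7.6 (median 7.51), then 4.91, 4.78 and 5.76 (log2 2.76 and 2.2, SE 0.23). Both genes were at or near their top already at E13.5 (Eln 9.49 ± 0.67, Lox 7.68 ± 0.43, SD, n = 3), and both were as high again at E19.5 (9.55 ± 0.6 and 7.62 ± 0.57). The stage means of Eln and Lox inside the window lay below those of E13.5 and E19.5, which was not tested. Adamts19, a secreted metalloprotease, read 3.72, 4.38 and 4.91 at E10.5, 6.09 to 7.46 (median 6.77) in midfetal hearts and 4.24, 3.89 and 2.92 in young adults, and its highest stage mean was also E13.5 (7.2 ± 0.18).

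Of 69 matrix genes on a list drawn up for this work, 3 (Col1a1, Eln and Lox) passed the 4-fold limit at both ends and 6 passed a 2-fold limit through some probe set, beside 0.812% of all genes. Ltbp3 and Adamts19 are not on the list. The other list genes at 2-fold were Col1a2 (log2 2.84 and 1.8), the partner chain of Col1a1, Postn (periostin, 1.6 and 1.69) and Col6a1 (3.05 and 1.13). More matrix genes passed against 1 end: 12 of 69 were more than 4-fold above E10.5 (0.536% of all genes, 1 probe set a gene), 13 of 69 were more than 4-fold below young adults (1.82%), and the list's median difference was 0.29 against E10.5 and 0.21 against young adults, against 0.13 against E10.5 and -0.11 against young adults for all genes (log2, 1 probe set a gene). Vcan, the proteoglycan of the cardiac jelly, went down from 11.54 ± 0.04 through 9.74 ± 0.39 to 6.84 ± 0.53, and Dcn (decorin) went up from 7.13 ± 0.18 through 9.68 ± 0.29 to 12.57 ± 0.21 (SD, n = 3, 9 and 3). Of the 6, 1 (Col1a1) still passed at 2-fold with the 3′ minus 5′ difference as a covariate. No gene of the list was lower than both ends at either limit. Tgfbi, a TGF-beta-induced matrix protein that is not on the list, was lower than both (-2.73 and -2.16).

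A further set of peak genes, gathered after their values were seen, has roles in excitation. Kcna4 encodes Kv1.4, a channel of the slow transient outward potassium current. It read 3.9, 3.65 and 4.07 at E10.5, 6.27 to 6.79 (median 6.6) in midfetal hearts and 3.79, 3.04 and 3.19 in young adults (log2 differences 2.72 and 3.25, SE 0.16), and its stage means were highest at E15.5 (6.71 ± 0.11) and stood at 5.22 ± 0.38 at E19.5. Gja3, a connexin known mainly from the lens, read 3.59, 3.76 and 3.32, then 5.95 to 7.26 (median 6.28), then 3.97, 4.56 and 3.76 (log2 2.83 and 2.3, SE 0.31). Trdn, triadin, which anchors calsequestrin to the calcium release channel of the sarcoplasmic reticulum, in its leading probe set read 8.97, 8.85 and 9.6 at E10.5, 11.11 to 12.03 (median 11.76) in midfetal hearts and 9.14, 9.52 and 9.09 in young adults (log2 2.56 and 2.45, SE 0.22), but another Trdn probe set differed by 1.86 from E10.5 and by -0.63 from young adults, so it was highest in the adult.

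Rnf207, a RING finger protein tied to cardiac repolarization in human genetics, read 5.07, 5.12 and 5.54 at E10.5, 7.28 to 8.06 (median 7.8) in midfetal hearts and 4.38, 4.14 and 4.25 in young adults (log2 2.47 and 3.45, SE 0.2). Its other probe set passed as well (2.17 and 2.06). Clca3a1, of the calcium-activated chloride channel regulator family, was at 5.9 to 6.36 (median 6.14) in midfetal hearts, with log2 differences of 2.11 and 3.1. Of 45 channel and calcium handling genes on the list, Kcna4 was the 1 that passed at 4-fold (0.0966% of all genes did), and Kcne1 (1.57 and 3.2), a potassium channel subunit, and Cacna1g (2.32 and 1.52), a T-type calcium channel, brought the number at 2-fold to 3 (0.812% of all genes). Kcna4 alone of the 3 passed at 2-fold with the 3′ minus 5′ difference as a covariate. The list's median difference was 0.17 against E10.5 and -0.08 against young adults. No channel gene of the list was lower than both ends.

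The promoters of the peak genes whose probe sets passed under all 27 settings that followed single probe sets, as far as the reference table holds them, are shown as the sequence context of these genes: the 250 bases before the annotated start, 5′ to 3′ on the gene's strand, from RefSeq on GRCm38.p6. They lie at chr19:5740650-5740899 (plus strand) for Ltbp3, chr2:107290339-107290588 (plus strand) for Kcna4 and chr16:34514028-34514277 (minus strand) for Kalrn. Capitals mark the letters CAAGTG on either strand, the NKX2-5-type motif named for a cardiac homeobox factor.
Ltbp3: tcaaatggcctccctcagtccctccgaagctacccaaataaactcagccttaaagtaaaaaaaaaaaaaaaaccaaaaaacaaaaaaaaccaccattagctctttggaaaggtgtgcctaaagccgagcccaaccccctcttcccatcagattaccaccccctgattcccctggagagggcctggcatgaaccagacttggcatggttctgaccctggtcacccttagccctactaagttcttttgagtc
Kcna4: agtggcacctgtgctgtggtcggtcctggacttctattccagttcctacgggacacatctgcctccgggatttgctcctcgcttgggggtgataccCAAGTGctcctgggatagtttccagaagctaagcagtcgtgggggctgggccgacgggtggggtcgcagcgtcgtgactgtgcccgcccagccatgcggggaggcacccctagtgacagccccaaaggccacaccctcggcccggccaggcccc
Kalrn: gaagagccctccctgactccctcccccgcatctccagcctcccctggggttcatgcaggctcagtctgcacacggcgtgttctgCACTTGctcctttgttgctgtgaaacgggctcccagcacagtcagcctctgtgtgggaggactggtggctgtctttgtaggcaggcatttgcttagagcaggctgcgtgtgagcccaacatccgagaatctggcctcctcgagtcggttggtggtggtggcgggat
The motif stands 154 bases before the start of Kcna4 and 166 bases before that of Kalrn, and is absent from the Ltbp3 window. It occurs in 11.6% of all 32851 promoter windows of this length, and in windows of 3 of the 16 member genes that the table holds (Aldh1a1, Kalrn and Kcna4). The letters AGATAA, a motif of zinc finger heart factors, stood on either strand in windows of 1 gene (Aldh1a1), beside 9.99% of all windows. The letters GGAATG, a motif of Hippo pathway factors, stood in windows of 2 genes (Aldh1a1 and Nckap5), beside 12.6% of all windows. A match of letters is a description and shows no binding.

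Further named peak genes have other roles. Kalrn, kalirin, a guanine nucleotide exchange factor for small GTPases of the cytoskeleton, read 3.56, 3.52 and 4.14 at E10.5, 6.13 to 6.73 (median 6.43) in midfetal hearts and 3.44, 3.88 and 2.61 in young adults (log2 2.7 and 3.13, SE 0.2). Of 7 other Kalrn probe sets, 6 were higher than both ends by sign and 1 passed too (2.04 and 2.49). The Kalrn probe set with the highest mean, at 7.18 in midfetal hearts, differed by 1.06 from E10.5 and 2.26 from young adults. Fabp7, a fatty acid binding protein known from radial glia, had stage means of 3.28, 3.19, 3.46 and 3.74 from E10.5 to E13.5 and then stood at 5.93 ± 0.64 at E14.5. Its young adult arrays read 2.87, 3.67 and 4.33. Of 31 neuron and glia markers, 2 (Fabp7 and a probe set of Ddc) passed at 2-fold, beside 0.812% of all genes, and the list's median was 0.18 against E10.5 and -0.18 against young adults.

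Septin6, a filament-forming GTPase, had midfetal values of 5.29 to 6.52 (median 6.04) and log2 differences of 2.32 and 3.11 (SE 0.25). Strip2, of the striatin-interacting phosphatase complex, had 8.47 to 9.06 (median 8.78) with 2.3 and 2.53 (SE 0.2), and Nckap5 had 5.58 to 6.16 (median 6.01) with 2.09 and 2.81 (SE 0.2). These were modest levels: in all of them but Strip2 the young adult arrays were below 5.

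The peaks also held 4 transcripts that carry clone names. The paper describes 1 of them, 4632404M16Rik, as a long non-coding RNA in an intron of the calsequestrin gene Casq2, and reports a transient course for it. 4632404M16Rik read 3.65, 3.77 and 3.89 at E10.5, 7.37 to 8.53 (median 8.32) in midfetal hearts and 6.18, 6.12 and 5.98 in young adults. Its stage mean went on to 8.84 ± 0.21 at E18.5, and its difference from young adults, 2.01, was the smallest that passed. For 2900055J20Rik the differences were 2.37 and 2.47, for AI451458 2.07 and 2.39, and for AU021895 2.38 and 2.05. AU021895 ranged from 4.18 to 6.03 within the window, the widest of the named peak genes. The probe set with the biggest differences among the peaks, 1459725_s_at, carries no gene ID, and its suffix marks probes shared by more than 1 transcript: it read 2.19, 2.34 and 2.45 at E10.5, 6.91 to 8.78 (median 7.4) in midfetal hearts and 2.37, 2.15 and 2.42 in young adults, 36.9-fold and 37.1-fold apart. The 2 other such probe sets, 1443799_at and 1442067_at, differed by 2.02 and 2.77, and by 2.02 and 3.5.

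**Figure D2:**
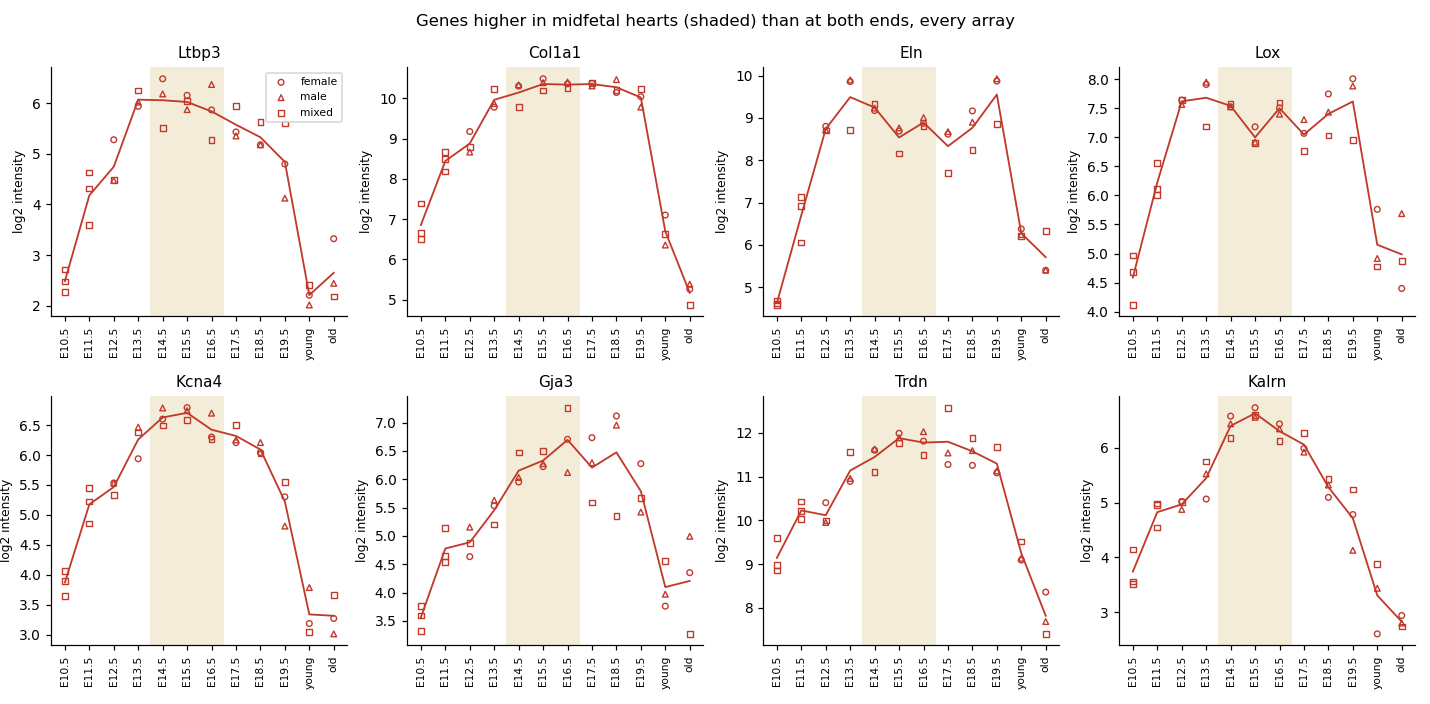
Log2 intensity (y axis) of 8 genes above both ends in every array by stage (x axis; circles female, triangles male, squares mixed; lines join stage means of 3 arrays; shading marks E14.5 to E16.5). Kcna4 and Kalrn top out at E15.5, whereas the stage means of Eln (9.49 and 9.55) and Lox (7.68 and 7.62) are high at E13.5 and E19.5, and those of Col1a1 (10.02) and Trdn (11.3) at E19.5 are still above young adults.

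At the limit itself, the last gene inside was 4632404M16Rik (2.01 against young adults), and the first genes outside were Kcnq1ot1 (1.99 and 2.34), an imprinted antisense RNA, and Tmem255a (1.97 and 5.46). Among the genes below both ends the last inside were Ptprg (-2.09) and Dnajb9 (-2.09), and the first outside were Tsc22d3 (-1.97 and -3.28) and Ndufa4 (-1.95 and -3.20).

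Where in development the extreme fell differed between genes. The highest of the 12 stage means lay in the window for 15 of 23 peak probe sets (4 at E14.5, 7 at E15.5 and 4 at E16.5), at E13.5 for 3, and at E17.5 to E19.5 for 5. Inside the window, E16.5 minus E14.5 ranged from -0.78 to 0.95 over the peak probe sets and from -1.26 to 0.14 over the dip probe sets (log2). From E14.5 to E16.5, 1 of 23 peak probe sets changed (4632404M16Rik, log2 0.95, SE 0.19, limma adjusted p = 0.0176), and 0 of 12 dip probe sets (1 of 12 at an unadjusted p under 0.05), beside 0.3% of 20685 probe sets higher and 0.189% lower.

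The 2 differences that chose the genes left out the stages on either side of the window, E11.5 and the old adult. These stages, set against E13.5 and E17.5, give a like measure in other arrays, though each of them lies next to a stage that the choice used. They did enter the shared estimate of the spread and the stage mean limit, so they were not fully apart from the choice. A model of the 15 arrays alone gave the 20 peak genes and 7 of the 11 dip genes. The mean of E13.5 and E17.5 exceeded E11.5 in 22 of 23 peak probe sets (adjusted p under 0.05, limma; 10% of 20685 probe sets did) and exceeded the old adult in 23 of 23 (36.4%). Both held for 22 of 23, against 3.68% of the probe sets. Col1a1 rose by 1.72 over E11.5 (SE 0.18, adjusted p = 3.59e-08) and was 4.99 above the old adult (adjusted p = 1.41e-20). Ltbp3 rose by 1.64 (SE 0.28, adjusted p = 0.000116) and was 3.17 above the old adult. Kcna4 rose by 1.11 (SE 0.17, adjusted p = 3.13e-05) and Kalrn by 0.93 (SE 0.21, adjusted p = 0.0023). The exception was Clca3a1, 0.42 above E11.5 (SE 0.23, adjusted p = 0.212). With the 3′ minus 5′ difference as a covariate these counts were 22 and 22 of 23, and with the hybridization control level they were 18 and 23. The midfetal hearts and these flanking stages are neighbours in time, and so are E10.5 and E11.5, and the young and old adults. Levels that change slowly are shared between neighbours, so these counts are not independent of the choice.

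Step by step, 14 of 23 peak probe sets rose from E11.5 to E13.5 (1.4% of all probe sets) and 0 fell (0.938%), as all 23 were higher at E13.5. Eln rose by 2.79 (SE 0.31, adjusted p = 6.86e-07). From E13.5 to E17.5, 7 rose (5.4% of all), among them 4632404M16Rik (2.51) and Fabp7 (1.97, adjusted p = 0.000328), and 3 fell, namely Eln (-1.16), Adamts19 (-1.01) and Clca3a1 (-0.93), beside 10.8% of all. From E17.5 to E19.5, 5 fell (4.27% of all), Septin6 by 1.55, AU021895 by 1.44, Kalrn by 1.34, Kcna4 by 1.1 and Rnf207 by 0.96 on the log2 scale, and Eln rose by 1.22. Between E19.5 and the old adult, 22 of 23 fell (25.3% of all), Col1a1 by 4.85 (SE 0.21, adjusted p = 6.63e-18). Of the genes that passed, Kcna4, Kalrn, Septin6, Rnf207 and AU021895 had thus come down before E19.5.

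**Figure D3:**
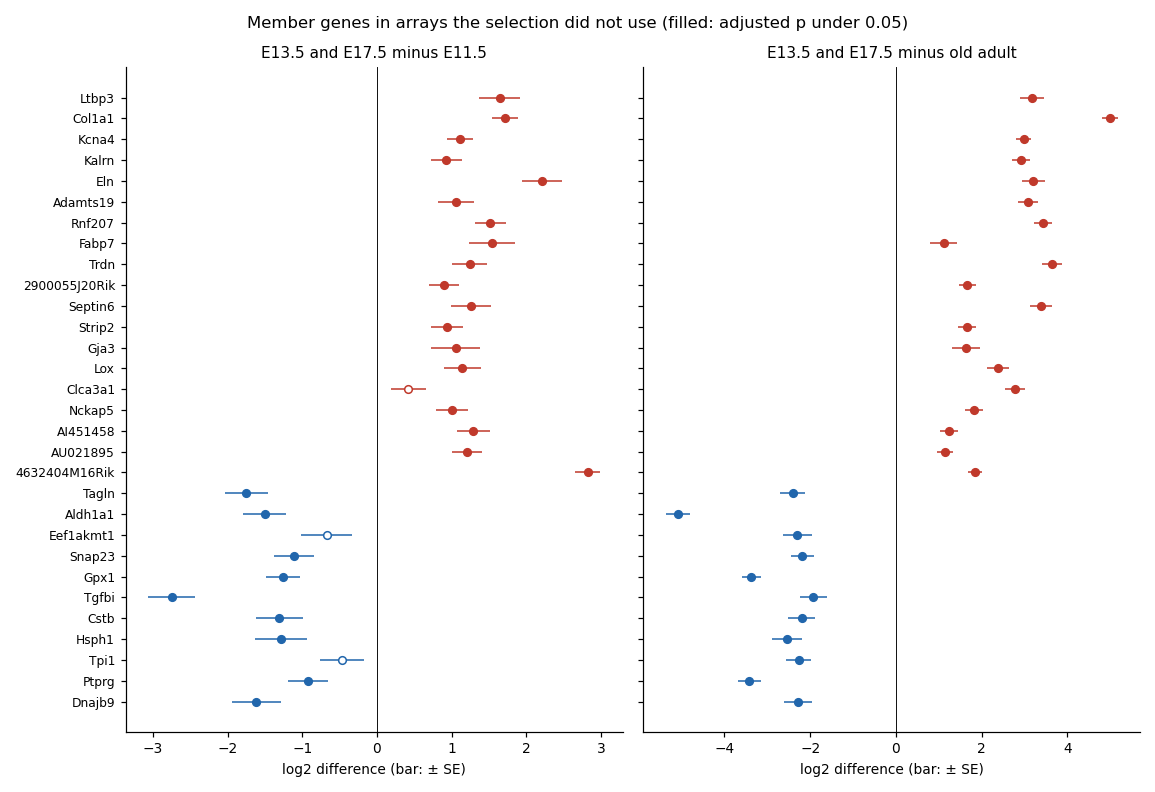
Log2 difference (x axis; bars are ± SE) of the mean of E13.5 and E17.5 from E11.5 (left) and from the old adult (right) for 19 of the 20 peak genes (red) and the 11 dip genes (blue), filled where the adjusted p is under 0.05. All 19 peak genes shown lie right of 0 and all 11 dip genes left of 0 in both panels, and Clca3a1, Eef1akmt1 and Tpi1 are open on the left.

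The genes below both ends were fewer. Tagln, transgelin, an actin-binding protein of smooth muscle that the embryonic heart tube also expresses, read 8.95, 8.98 and 8.1 in the E10.5 arrays, 5.04 to 6.18 (median 5.32) in the midfetal arrays and 8.93, 8.86 and 9.3 in the young adult arrays, 9.53-fold and 12.2-fold apart (log2 -3.25 and -3.61, SE 0.27). It was the 1 of 19 smooth muscle and pericyte genes that passed: Acta2 stood at 12.67 ± 0.11, 12.39 ± 0.15 and 11.3 ± 0.25, and Myh11 at 3.2 ± 0.24, 4.63 ± 0.31 and 8.54 ± 0.03 (E10.5, midfetal, young adult). Aldh1a1, a retinaldehyde dehydrogenase, had the biggest difference from young adults, with 6.38, 6.45 and 6.03 at E10.5, 2.91 to 4.38 (median 3.58) in midfetal hearts and 9.12, 8.0 and 8.93 in young adults (log2 -2.74 and -5.14, SE 0.27). All midfetal Aldh1a1 values were below 5.

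Tgfbi, a TGF-beta-induced matrix protein, read 8.38, 8.37 and 7.76 at E10.5, 4.64 to 7.03 (median 5.14) in midfetal hearts and 7.55, 7.35 and 7.89 in young adults (log2 -2.73 and -2.16, SE 0.3). Its level was still 8.77 ± 0.09 at E12.5 and reached its lowest stage mean, 4.19 ± 0.71, at E17.5. Of 3 other Tgfbi probe sets, all 3 were lower than both ends by sign and 1 passed too (-2.42 and -2.09). The Tgfbi probe set with the highest mean differed by -1.65 and -1.14, and the remaining one by -1.33 and -0.91. Gpx1, glutathione peroxidase of the peroxide defence, read 8.95, 9.65 and 8.92, then 6.45 to 7.26 (median 6.99), then 10.18, 9.91 and 10.35 (log2 -2.25 and -3.22, SE 0.22), and Tpi1, the glycolytic triose phosphate isomerase, 9.27, 9.61 and 8.15, then 6.27 to 7.53 (median 6.92), then 8.97, 8.97 and 9.0 (log2 -2.15 and -2.12, SE 0.28). Of 28 glycolysis genes Tpi1 was the 1 below both ends.

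Chaperones were represented by Hsph1, a large HSP70-family protein, at 5.33 to 7.61 (median 6.33) in midfetal hearts (log2 differences -2.34 and -2.13, SE 0.33), and by Dnajb9, a co-chaperone of the endoplasmic reticulum, at 4.47 to 6.75 (median 5.55) (log2 -2.14 and -2.09, SE 0.31). The protease inhibitor Cstb, cystatin B, was at 5.72 to 7.77 (median 6.64) (-2.13 and -2.33, SE 0.3). Snap23, of the vesicle fusion machinery, was at 3.04 to 3.95 (median 3.38) (-2.35 and -2.31, SE 0.25). Eef1akmt1, a methyltransferase of an elongation factor, was at 3.38 to 4.93 (median 3.93) (-2.38 and -2.86, SE 0.32). Ptprg, a receptor tyrosine phosphatase, was in its called probe set at 2.52 to 3.46 (median 2.63) (-2.09 and -2.4, SE 0.26). The Ptprg probe set with the highest mean, at 7.16 in midfetal hearts, did not share the dip (-0.02 and -0.16, limma adjusted p = 0.899 and 0.312). Another, at 6.68, differed by -0.44 and -1.78. The probe set 1453299_a_at, without a gene ID, was at 3.57 to 5.14 (median 4.07) (-2.17 and -2.83).

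Single arrays weighed more on the dips than on the peaks. In 12 of 12 dip probe sets the third E10.5 array, the one with the large 3′ minus 5′ difference, was the nearest of the 3 to the midfetal level, and in 10 of 12 the E14.5 mixed array was the midfetal array nearest to the ends. Among the 23 peak probe sets the third E10.5 array was nearest in 16. Without that array 30 genes were below both ends, without the first or the second E10.5 array 6 or 5, and without the E14.5 mixed array 19. The number of peak genes moved less, from 18 to 22 over all arrays left out in turn.

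**Figure D4:**
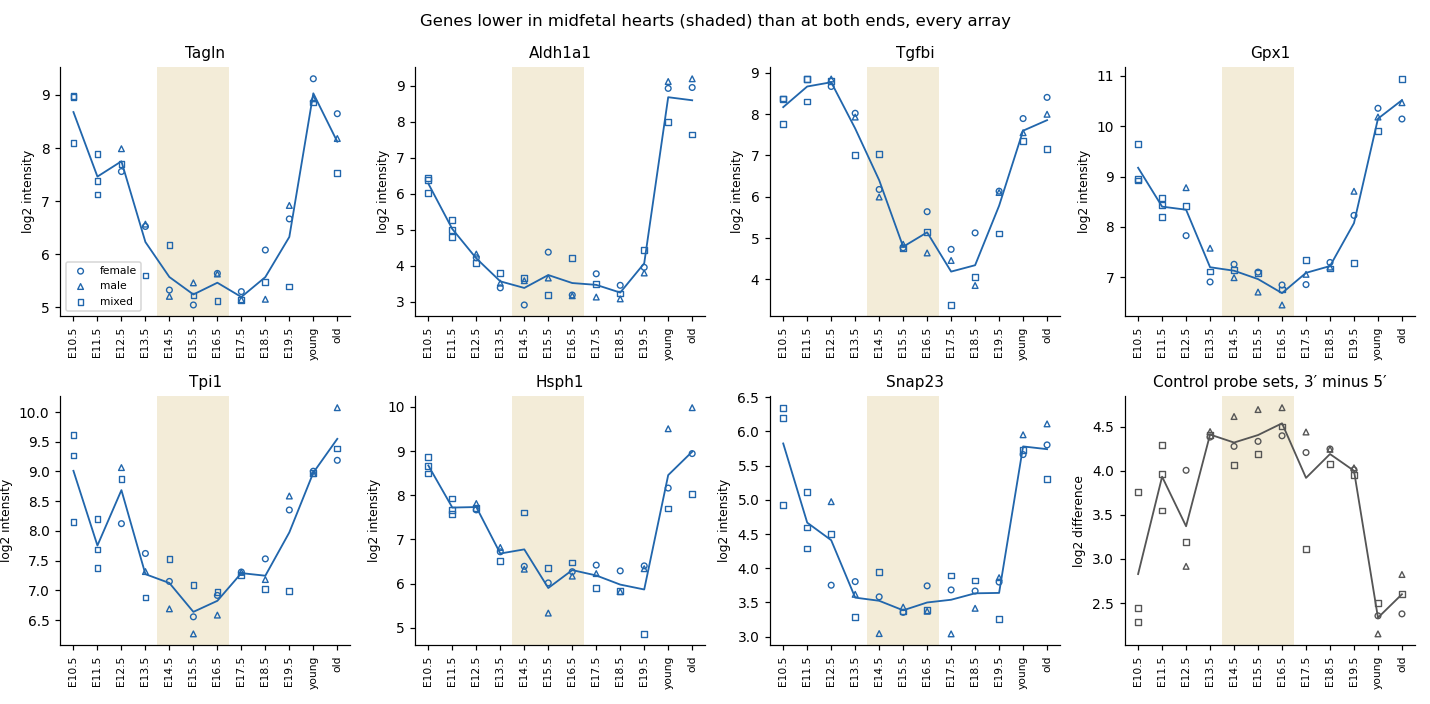
Log2 intensity (y axis) of 7 genes below both ends in every array by stage (x axis; circles female, triangles male, squares mixed; lines join stage means of 3 arrays; shading marks E14.5 to E16.5), and, last, the mean log2 3′ minus 5′ difference of the Gapdh and Actb control probe sets. Tgfbi is high to E12.5 and lowest at E17.5, and the control difference has its highest stage mean at E16.5 (4.54) and is low in the adults.

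In the arrays outside the choice, the mean of E13.5 and E17.5 was below E11.5 in 9 of 12 dip probe sets (adjusted p under 0.05, limma; 19.2% of 20685 probe sets were) and below the old adult in 12 of 12 (27.5%), and 9 of 12 were below both, against 4.28%. As for the peaks, these stages lie next to those that chose the genes. With the 3′ minus 5′ difference as a covariate, 9 and 12 of 12 passed, and 4 of 12 were below E11.5 with the hybridization control level as one. Tgfbi differed from E11.5 by -2.75 (log2, SE 0.31, adjusted p = 2.22e-07), Tagln by -1.75 (SE 0.29, adjusted p = 8.05e-05) and Aldh1a1 by -1.5 (SE 0.29, adjusted p = 0.000425). Among named genes, Eef1akmt1 (-0.67, adjusted p = 0.172) and Tpi1 (-0.47, adjusted p = 0.271) did not pass. From E17.5 to E19.5 Tgfbi (1.59), Cstb (1.56), Tagln (1.13) and Gpx1 (0.99) rose, 4 of 12 probe sets (3.15% of all), and from E19.5 to the old adult 12 of 12 rose (21.2%), Aldh1a1 by 4.53 (SE 0.33, adjusted p = 1.91e-12).

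With the 3′ minus 5′ difference as a covariate in the same model, the dips shrank more than the peaks. All 23 peak and all 12 dip probe sets kept their direction at both ends. The median peak went from 2.49 to 2.22 against E10.5 and from 2.81 to 2.58 against young adults, and the median dip from -2.3 to -1.63 and from -2.37 to -1.72. The fold limit was still met at both ends by 10 of 20 peak genes and 3 of 11 dip genes (Aldh1a1, Tagln and Tgfbi). The standard errors grew at the same time, from a median of 0.2 to 0.33 and 0.39 for the peaks, because the covariate moves with stage. By all limits, 4 peak genes (Ltbp3, Col1a1, Kcna4 and Kalrn) and 0 dip genes passed in limma, where 3 of the 11 dip genes, the ones named, passed the fold limit with an unadjusted p under 0.05. At the 2-fold limit, with the adjusted p of 1e-05 kept, 7 peak genes and 1 dip gene passed. With the hybridization control level as the covariate 15 peak genes (11 of them among the 20) and 1 dip gene passed at 4-fold, and with the title prefix of the labels as a block 11 of the 20 peak genes and 2 of the 11 dip genes.

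Ltbp3 read 3.22 (SE 0.42) and 3.42 (SE 0.5) in that fit, Col1a1 2.82 (SE 0.23) and 2.79 (SE 0.28), Kcna4 2.61 (SE 0.26) and 3.11 (SE 0.31), and Kalrn 2.47 (SE 0.31) and 2.84 (SE 0.37). The probe sets of these 4 genes passed under all 27 settings at which single probe sets were followed. These settings reuse the arrays that chose the genes, and some only loosen a limit, so this is a description. With each gene read instead from its probe set with the highest mean, Col1a1 and Kcna4 passed and Ltbp3 and Kalrn did not. At the other end, Snap23 shrank from -2.35 and -2.31 to -1.08 (SE 0.27) and -0.64 (SE 0.32), and Tpi1 from -2.15 and -2.12 to -1.19 and -0.87. Tagln kept -2.68 (SE 0.42) and -2.85 (SE 0.5). The covariate is built from 2 genes whose own expression can change with age, and its part in the levels of the members was not tested beyond this fit.

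**Figure D5:**
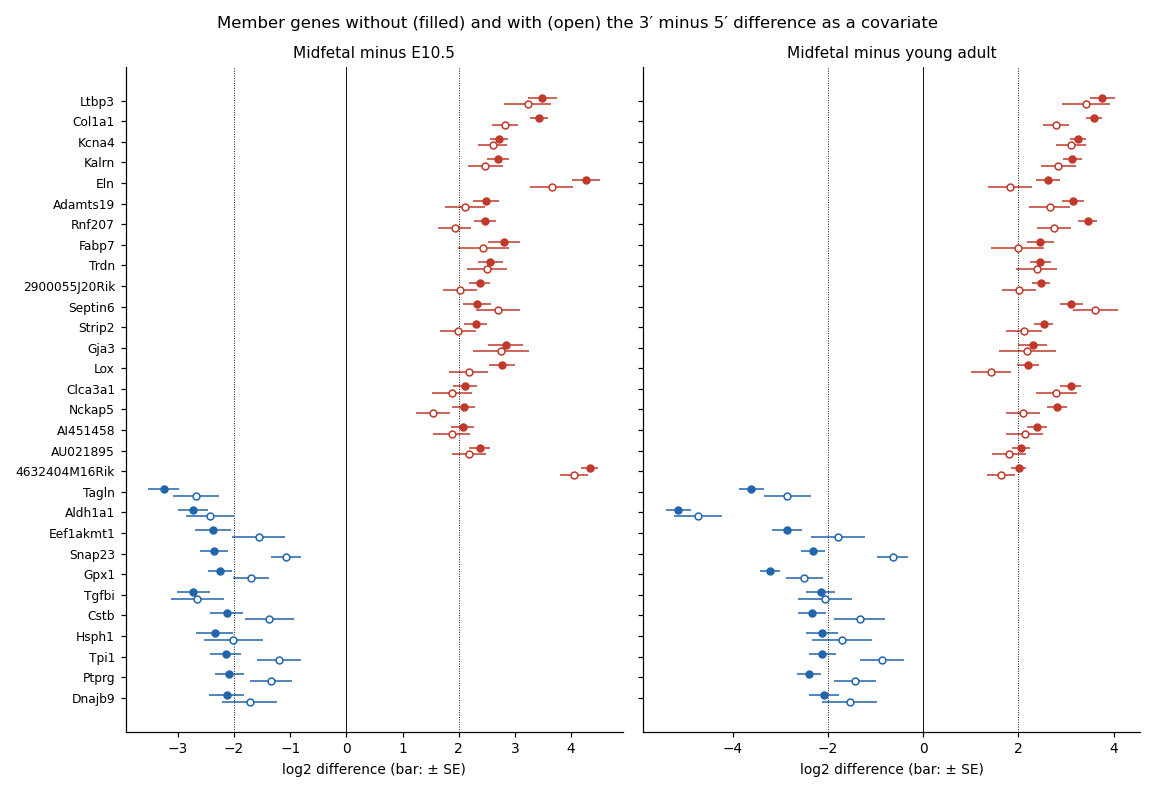
Log2 difference of midfetal hearts from E10.5 (left) and from young adults (right; x axes, bars ± SE) for 19 of the 20 peak genes (red) and the 11 dip genes (blue), without (filled) and with (open) the 3′ minus 5′ difference as a covariate; dotted lines mark 4-fold. No gene shown changes sign, the open points of Ltbp3, Col1a1, Kcna4 and Kalrn stay beyond 4-fold on both sides, and Snap23 and Tpi1 are less than 2-fold on the right.

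Many of these genes have further probe sets on the array, which read other stretches of the transcript. They were read in the arrays that chose the genes, so their counts are descriptions and no test of the pattern. The shares of all probe sets at these limits were not computed. Of 18 other probe sets of peak genes with a stage mean above 5, 16 had a positive difference from both ends, counted by sign alone. Of the 18, 14 were higher with an adjusted p under 0.05 at both ends (limma) and 2 passed the 4-fold limit, and the 2 with a negative sign at 1 end belong to Trdn. Of 13 other probe sets of dip genes, 11 had a negative difference from both ends, 9 with an adjusted p under 0.05 at both and 1 past the 4-fold limit. The exceptions by sign were a Snap23 probe set (0.32 against E10.5 and -1.02 against young adults) and an Eef1akmt1 probe set (0.76 and -1.4). The Ptprg probe set with the highest mean counts as negative by sign alone, at -0.02 and -0.16. A second Col1a1 probe set had the same sign with smaller sizes (1.83 and 1.23), and for Eln, Kcna4 and Gja3 the second probe set stayed below 5 at every stage.

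At a 2-fold limit 168 genes (0.812%) were higher and 158 (0.763%) lower than both ends, beside 3.07% higher and 7.49% lower than E10.5, and 12.8% higher and 6.81% lower than young adults. In the arrays outside the choice, 195 of 250 such peak probe sets (3.68% of 20685 probe sets) and 105 of 183 dip probe sets (4.28%) passed both flanking differences in the same direction. These flanking counts also come from stages next to those of the choice. They were not computed with the 3′ minus 5′ covariate, with which 7 peak genes and 1 dip gene passed at 2-fold. Beside the channels and matrix genes above, the peaks took in Ppargc1a (1.3 and 1.4), a coactivator of mitochondrial biogenesis, at 1.49 and 1.65 with the 3′ minus 5′ covariate. They also took in its partner receptor Esrra through 1 probe set (1.72 and 1.49), and the clock factor Npas2 (2.15 and 1.72). Single probe sets of Tcf21 (1.57 and 1.51), a factor of epicardium and fibroblasts, Pdk1 (1.39 and 1.63) and the imprinted RNA Meg3 (1.11 and 4.21) passed as well. Ppargc1a still passed at 2-fold with the covariate, and Esrra, Npas2, Tcf21, Pdk1 and Meg3 did not. The endothelin receptor Ednrb was below both ends (-1.49 and -1.33).

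Housekeeping families stood out among the 2-fold dips once their names were read, so they are given as counts without a test. Of 72 ribosomal protein genes 11 (15.3%) were below both ends, of 45 proteasome subunits 6 (13.3%), of 44 Dnaj co-chaperones 4 (9.09%) and of 77 mitochondrial ribosome genes 5 (6.49%), and none of these genes was above both ends. With the 3′ minus 5′ difference as a covariate the counts were 0 in each of these families in limma, and 1, 0, 3 and 1 at an unadjusted p under 0.05. These families were chosen after their values were seen.

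Male and female hearts of the window were compared over 3 pairs, with stage as a block. Of 35 member probe sets 1 differed (44 of 45101 probe sets did, 0.0976%): Eef1akmt1 was lower in males, 3.47 against 4.36 (log2 -0.89, limma adjusted p = 0.0137). No peak probe set differed at this limit, and 2 of 23 had an unadjusted p under 0.05. Of the 12 dip probe sets, 7 had an unadjusted p under 0.05 and 11 were lower in males by sign. The 3′ minus 5′ difference was higher in the male array of each pair, at 4.62 against 4.28 at E14.5, 4.7 against 4.33 at E15.5 and 4.72 against 4.4 at E16.5, and its part in these differences was not tested. The array labelled E15.5 male carried Xist at 7.34, between the other male arrays and the female arrays, beside Y-linked Eif2s3y at 8.16, so the E15.5 pair rests on an array that goes partly against its label.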

How the data were processed

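Heart RNA of OF1 mice was measured on 36 Affymetrix Mouse430 2.0 arrays, 3 for each of 12 stages, labelled from 3′ ends. The deposited values are log2 intensities that the authors normalized with RMA (Affymetrix Expression Console, Partek 6.6), with 1 column per array and no replicates pooled, and the build behind the gene annotation is not given in the sources used here. Arrays were grouped by GEO's labels. The labels give the old adults as 14 months and the study's methods give another age, and the extraction protocol of the labels names liver. All members, gene lists and tests were chosen with earlier results of these data known.

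A linear model of 12 stage means was fitted to 36 arrays with limma 3.58.1 in R 4.3.3 (eBayes), with Benjamini-Hochberg adjustment over 45101 probe sets in each difference. The midfetal level was the mean of the E14.5, E15.5 and E16.5 stage means. Called probe sets had an adjusted p under 1e-05, a log2 difference beyond 2 and a stage mean above 5 in at least 1 stage, and were counted by Entrez gene ID, with 6937 probe sets without an ID left out of gene counts. Differences between stages outside the choice were called at an adjusted p under 0.05, and so was male against female, fitted to 6 arrays with stage as a block. These p-values rest on 3 arrays a stage, which limits their precision. Of 649 genes on 24 lists, 633 were matched by symbol, and the rest were not analysed here. Named genes were up to 24 peaks and 16 dips with the largest smaller difference and no overlap between arrays (all called genes, of which 1 peak gene is counted but not reported here), the 2 on each side of the limit, up to 4 called members of each list (2 members of the highest mean where none was called), and the highest genes of the window. Vcan, Dcn, Acta2, Myh11, Postn, Col6a1, Actc1, Tnnt2 and Alb were named after their values were seen. In data simulated for the comparison of both ends over 45101 probe sets, the model called 48 of 50 changes of 2.5 (log2), 50 of 50 of 3, 1 of 50 of 1.5, and 0 unchanged probe sets. The simulated noise was independent between probe sets, without array-wide shifts such as the 3′ minus 5′ difference. The simulation therefore cannot tell how many false calls such a shift would give. A change of 1.5 lies below the log2 limit of 2, so its low count follows from the limit. Changed probe sets were drawn from those with higher means, so changes near the floor of the array were not simulated. Promoters came from a RefSeq table on GRCm38.p6. Figures were drawn with matplotlib 3.10.9. Alternatives changed the limits, the filter, the normalization, the covariates, the arrays and the later end.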

Additional observations from a re-analysis of the deposited data

Results flagged for a closer look

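In 4 member probe sets, 1 of the 9 midfetal arrays lay far from the others by Dixon's gap ratio, a test that flags about 1 in 20 such groups by chance. It was the E14.5 mixed array each time. Col1a1 read 9.79 there (log2 intensity), the lowest of the window and so nearer to both ends. The dip genes Hsph1 and Ptprg read 7.61 and 3.46, and the dip probe set 1453299_a_at read 5.14, in each case the highest of the window and again nearer to both ends. The E14.5 mixed array had the smallest 3′ minus 5′ control difference of the window, 4.07 against up to 4.72, and its part in these values was not tested.

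Xist, the RNA of the inactive X chromosome, read 7.34 in the array labelled E15.5 male, where the other male arrays from E13.5 on read 2.00 to 2.41. The same array read 6.59 for the Y-linked Ddx3y and 8.16 for Eif2s3y. Without the whole E15.5 stage, 17 peak genes and 7 dip genes passed.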

How the results depend on the processing

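Of the 31 probe sets followed, 1 for each member gene, none changed sign in the 27 settings that follow a probe set. Other probe sets of Trdn, Eef1akmt1 and Snap23 differ in sign at 1 end. The settings reuse the arrays that chose the genes, so a kept sign is a description and no support. The leading probe sets of Ltbp3, Col1a1, Kcna4 and Kalrn passed in all 27 settings that follow a probe set, some of which only loosen a limit. The settings with each stage alone, with 1 probe set a gene and with a log2 limit of 1 are not among the 27. With a log2 limit of 1, 635 genes were higher and 1551 lower than E10.5, 2651 higher and 1410 lower than young adults, 168 above and 158 below both ends. Quantile renormalization left 135 lower than E10.5 and called 1 dip probe set between E13.5 and E17.5 in place of 2. It gave 24 peaks (17 shared) and 9 dips (7 shared). Median centring left 133 lower than E10.5 and 497 higher than young adults. A model of the 15 arrays alone gave 7 dips. Asking each of the 3 stages to pass alone gave 75 higher and 90 lower than E10.5, 13 peaks and 4 dips. The hybridization control covariate gave 42 lower than E10.5, 1014 lower than young adults and 1 dip, with 1 dip probe set called between E13.5 and E17.5 in place of 2, 4 against E11.5 in place of 9 and 1 inside the window in place of 0. The title prefix of the labels, which 8 of 9 midfetal arrays lack and all adult arrays carry, left 275 lower than young adults, 11 peaks and 2 dips when used as a block. With 1 probe set a gene, 126 were lower than E10.5, and 14 were peaks, without Ltbp3 and Kalrn, and 6 dips. The old adult as later end gave 20 dips (11 shared).

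The 3′ minus 5′ covariate, chosen after seeing the data, gave 68 higher and 35 lower than E10.5, 408 higher and 269 lower than young adults, 4 peaks and 0 dips by limma (5 dips at an unadjusted p under 0.05; at 2-fold, 7 peaks and 1 dip), and 1 dip probe set between E11.5 and E13.5 in place of 2. Without the E15.5 stage, also chosen then, 7 dips passed. With each array of the comparison dropped in turn, there were 112 to 132 higher and 132 to 514 lower than E10.5, 741 to 858 higher and 471 to 521 lower than young adults, 18 to 22 peaks and 5 to 30 dips, with 5 without the second and 30 without the third E10.5 array. With the sex label as replicate block there were 17 peaks (17 shared) and 15 dips (11 shared), with 114 and 315 genes against E10.5 and 773 and 496 against young adults. Males against females over all arrays gave 20 probe sets. The causes were not tested.

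Precision rests on 3 arrays a stage, on 1 pup for each single-sex fetal array, and on levels near the floor of the array for Ltbp3, Aldh1a1 and Ptprg. In simulated data a change of 1.5 (log2) was called in 1 of 50 cases, which follows from the log2 limit of 2 and is no measure of precision. The stage, the 3′ minus 5′ difference and the title prefix move together in part and cannot be told apart fully.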

Other observations

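The other gene lists held few or no genes that passed at both ends. Levels in this section are log2 intensities as mean ± SD at E10.5 (n = 3), midfetal (n = 9) and young adult (n = 3), and medians are log2 differences over 1 probe set a gene, beside 0.13 against E10.5 and -0.11 against young adults for all genes. The shares of all genes past the 4-fold limit, 1 probe set a gene, were 0.536% higher and 0.609% lower than E10.5, and 2.93% higher and 1.82% lower than young adults. Cell cycle genes stood highest at E10.5: 5 of 42 were lower than E10.5 and 18 of 42 higher than young adults, with a median of -1.04 against E10.5 and 1.92 against young adults. Imprinted growth genes had 12 of 22 higher than young adults and a median of -0.62 against E10.5 and 2.22 against young adults. Cardiac transcription factors had 12 of 34 higher than young adults, with Tbx20 at 10.03 ± 0.11, 10.07 ± 0.18 and 7.91 ± 0.33. Primitive globins were lower than E10.5 in 3 of 3, with Hbb-y at 13.6 ± 0.2, 10.43 ± 2.19 and 3.1 ± 0.31, while definitive erythroid genes had 2 of 34 lower than E10.5.

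Genes of resident immune cells went the other way. Of 28 macrophage, mast cell and platelet genes, 2 were higher than E10.5 and 10 lower than young adults, with the macrophage receptor Csf1r at 4.7 ± 0.36, 7.86 ± 0.28 and 9.15 ± 0.15. Of 20 antigen presentation and interferon genes 11 were lower than young adults (median 0.37 against E10.5 and -2.23 against young adults). Of 38 endothelial and endocardial genes 4 were higher than E10.5 and 8 lower than young adults, and of 27 genes of fatty acid oxidation and adult mitochondria 3 were higher than E10.5 and 8 lower than young adults. Sarcomere genes had a median near 0 (0.03 against E10.5 and -0.18 against young adults), with Myl2 at 13.47 ± 0.17, 13.48 ± 0.15 and 13.27 ± 0.15. Of 19 epicardial genes 4 were lower than E10.5, and of 9 adipocyte genes 3 were lower than young adults. Of 18 clock genes 2 were higher than E10.5 and 2 lower than young adults, and of 30 natriuretic, autonomic and hormone signalling genes 2 were lower than E10.5. None of 20 immediate early and heat shock genes and none of 18 lung and thymus genes passed in any direction at 4-fold by limma with 1 probe set a gene (0 and 0 at an unadjusted p under 0.05), Hsph1 not being on the former list, and 1 of 14 skeletal muscle genes and 1 of 11 cartilage genes were lower than E10.5.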
